A study of Homo sapiens with 12 samples.

Results

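The difference between 2 doxycycline responses was measured in HL60, a line of human acute myeloid leukaemia cells: the response of cells that carry a doxycycline-inducible TFEB vector minus the response of cells that carry the empty vector. Both lines were made by transduction of HL60 with a puromycin-selectable pRRL vector, either empty (EV) or encoding TFEB S211A (TFEB), and each was grown with vehicle or with doxycycline at 1 µg/ml for 48 h. The 4 groups, TFEB doxycycline, TFEB vehicle, EV doxycycline and EV vehicle, held 3 libraries each, 12 in all, described by the submitters as biologically independent experiments. The study compared the cells that express TFEB S211A with the other 3 groups. The 2 lines come from separate transductions, and nothing in the sources used here says whether either is 1 clone or a pool. The treatment field names doxycycline for every library, vehicle libraries included, so groups were taken from each library's own treatment and genotype fields. The interaction was computed for each of 23128 of 57820 genes, those with a mean of at least 10 normalised read counts over the 12 libraries, as (TFEB doxycycline minus TFEB vehicle) minus (EV doxycycline minus EV vehicle) on log2(value + 1). A positive interaction means a response to doxycycline that was more upward in the TFEB line. The rule set no threshold on a response, only on the mean level, but that mean includes the TFEB doxycycline libraries. A gene that is low elsewhere can therefore pass through its own rise. RP11-145M4.1, for example, had at most 5.85 normalised counts outside TFEB doxycycline.

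TFEB is a transcription factor that binds the E-box-like CLEAR element in promoters of lysosomal and autophagy genes. In fed cells mTORC1 phosphorylates it on the lysosome surface and holds it in the cytoplasm, and the S211A change removes one of the phosphorylated serines, so that the protein enters the nucleus. Doxycycline is the inducer of the vector, and as a tetracycline it also inhibits the ribosomes of mitochondria. The EV line therefore receives the drug without the factor, and the interaction is the TFEB line's response with the EV line's response subtracted.

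The libraries held 4474007 to 22488047 recovered reads, and the deposited scaling left them far apart. Over the 7290 expressed nuclear genes, those with a mean of at least 200, the median ratio to the typical library still ran from 0.313 in EV doxycycline replicate 3, the shallowest library, to 2.21 in EV vehicle replicate 2, the deepest. Genes under a mean of 200 took 4.74 to 18.2% of a library, and mitochondrial transcripts 13.3 to 33.1%. Each result is therefore given on 2 scales, always in this order: the deposited scale, and the expressed-gene scale, on which each library was divided by that median ratio. The change of scale moved the median interaction of all 23128 genes from 0.31 to -1.67 (log2), and that of the expressed nuclear genes from 2.04 to 0.01. A gene was read as differing between the lines only where the interaction passed on both scales in 1 direction (limma on log2 values, Benjamini-Hochberg adjusted p under 0.05).

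**Figure D1:**
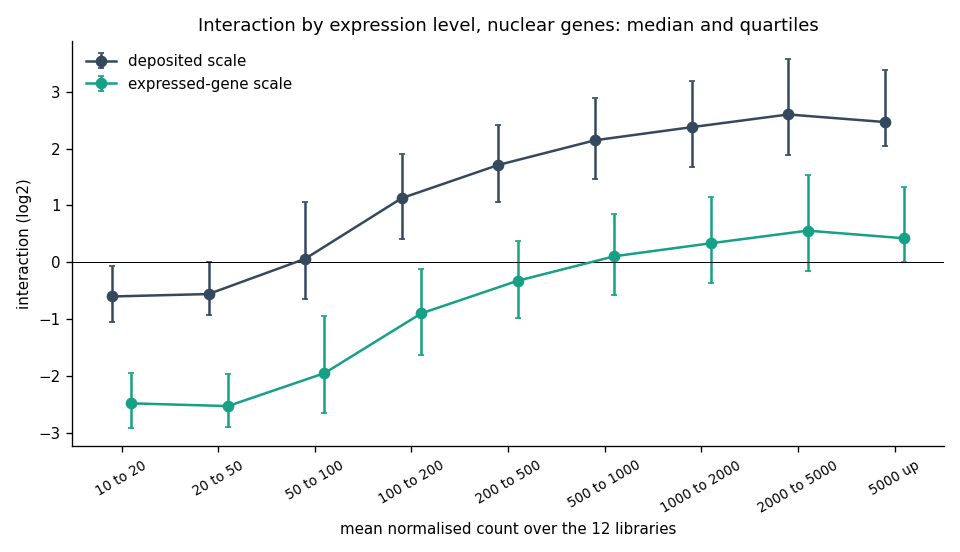
Median interaction (log2, y axis) with quartiles (bars) of nuclear genes in 9 classes of mean normalised count over all 12 libraries (x axis), TFEB doxycycline included, on both scales. On the deposited scale the median climbs from -0.60 in the lowest class to 2.60 among genes of 2000 to 5000, and the expressed-gene scale shifts every class down by about the same amount.

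On the deposited scale the interaction was higher in 6755 genes (29.2%) and lower in 1422 (6.15%). On the expressed-gene scale it was higher in 2533 (11.0%) and lower in 13377 (57.8%). Both scales gave 2532 genes higher (10.9%) and 1422 lower (6.15%). The share of higher genes among those called was 82.6% on the deposited scale, 15.9% on the expressed-gene scale, 16.3% with library totals made equal and 48.9% with TMM factors, and 2497 higher and 1422 lower genes kept their call under all 4. A change of scale moves most interactions by about the same amount. The genes higher on both scales were thus 2532 of the 2533 higher on the expressed-gene scale, and those lower on both were all 1422 lower on the deposited scale. Agreement between scalings is therefore no independent check of a call. Of the 7290 expressed nuclear genes 2266 (31.1%) were higher on both scales and 5 (0.0686%) lower. On the expressed-gene scale by itself 2183 of them (29.9%) were lower, and 2172 of these had no call on the deposited scale. A gene that rises in the TFEB doxycycline libraries is also lifted towards that mean of 200 by its own rise. With the level taken instead from the 6 vehicle libraries, an alternative added after seeing the data, 1859 of 7034 nuclear genes of mean 200 or more were higher (26.4%) and 6 lower (0.0853%), and 1416 of the 1422 lower genes were below that level or mitochondrial. The number of genes called on both scales stayed between 3003 and 4474, against 3954, when any 1 library was left out, and was 3605 with EV vehicle replicate 2 and EV doxycycline replicate 3 both left out.

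Sorting by the 2 responses gave 4 classes, which do not cover every gene with a called interaction. Genes with the interaction called and neither response called were left out of them. These numbered 883 higher and 732 lower on the deposited scale and 82 and 2401 on the expressed-gene scale. Genes whose class differed between the scales count in no class on both. A drug-shared gene passed in both lines in the same direction. A TFEB-only gene passed the interaction and the TFEB line's response but not the EV line's, an EV-only gene the interaction and the EV line's response but not the TFEB line's, and an opposite gene passed both responses in opposite directions. The TFEB line's response was higher in 17.4% and lower in 4.66% of genes on the deposited scale, and in 14.4% and 20.7% on the expressed-gene scale. That of the EV line was higher in 3.39% and lower in 23.3% on the deposited scale, and in 44.1% and 5.75% on the expressed-gene scale. On both scales together, 30.2% of expressed nuclear genes rose in the TFEB line and 3.51% fell, and 0.370% rose in the EV line and 17.5% fell. TFEB-only genes with a rise numbered 2542 (11.0%) and 1396 (6.04%) on the 2 scales and 662 (2.86%) on both, and those with a fall 272 (1.18%), 2563 (11.1%) and 37 (0.160%). Opposite genes that rose in the TFEB line and fell in the EV line numbered 1050 (4.54%), 299 (1.29%) and 236 on both (1.02%), and the reverse kind 21 (0.0908%), 1160 (5.02%) and 17 (0.0735%). Drug-shared rises numbered 110 (0.476%), 1228 (5.31%) and 61 on both (0.264%), and drug-shared falls 440 (1.90%), 686 (2.97%) and 119 (0.515%). EV-only genes with a higher interaction, which fell in the EV line, numbered 2221 (9.60%), 190 (0.822%) and 189 on both (0.817%), and those with a lower one 394 (1.70%), 6901 (29.8%) and 376 (1.63%).

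The class counts moved more than the interaction calls when 1 library was left out. The EV line's response had 6179 calls on the deposited scale, 454 once EV vehicle replicate 2 was left out and 1766 once EV doxycycline replicate 3 was. Opposite genes on both scales fell from 253 to 21 without EV vehicle replicate 2, while TFEB-only genes went from 699 to 2101 without it and to 88 without EV doxycycline replicate 1. Drug-shared genes numbered 49, against 180, without EV vehicle replicate 2, and EV-only genes 46, against 565. Of the genes in a class on both scales, 38 of 662 TFEB-only rises, 8 of 236 opposite rises, 6 of 61 shared rises, 23 of 119 shared falls and 7 of 189 EV-only genes with a higher interaction kept the class in each of the 12 fits with 1 library left out. For each gene named below by its class, the number of those 12 fits that kept it is given where it bears on the reading. A response that misses the threshold is not shown to be absent: the 662 TFEB-only rises had a median EV response of -1.07 on the deposited scale and 0.20 on the expressed-gene scale.

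**Figure D2:**
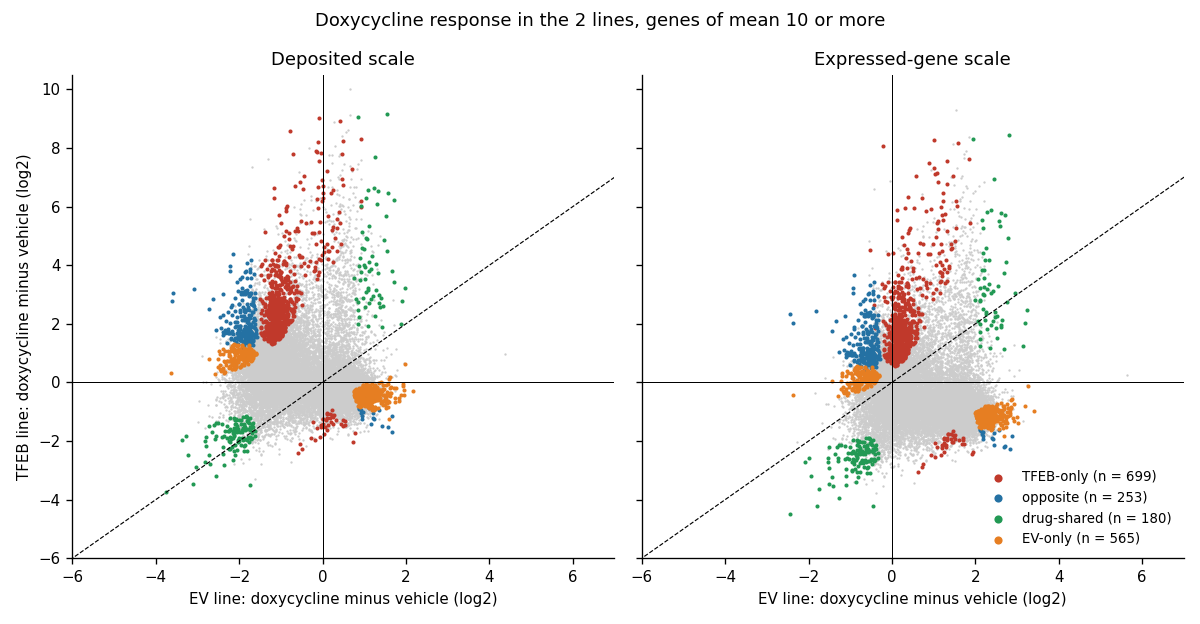
Doxycycline response of the TFEB line (log2, y axis) against that of the EV line (log2, x axis), 1 point per tested gene, on the deposited scale (left) and the expressed-gene scale (right). Coloured points are the 699 TFEB-only, 253 opposite, 180 drug-shared and 565 EV-only genes with the same class on both scales, and the dashed diagonal marks equal responses.

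Counts of list members are read against the share of all tested genes with a higher interaction on both scales, 10.9%, and against 31.1% among expressed nuclear genes, since most listed genes were expressed. A lower interaction on both scales was called in 0.0686% of expressed nuclear genes, so a list of expressed genes with none lower is near that share. The lysosome's proton pump had a higher interaction in every tested subunit. All 15 tested V-ATPase genes passed in this direction on both scales, with a median interaction of 4.77 and 2.74 against 2.04 and 0.01 for all expressed genes, and all 15 passed again without any 1 library. Each of the 15 also rose in the TFEB line on both scales. In the EV line none of them passed on both, while 5 fell on the deposited scale and 6 rose on the expressed-gene scale. Of expressed nuclear genes 0.370% rose and 17.5% fell in the EV line on both scales. Among lysosomal hydrolases, the enzymes that digest macromolecules in the lysosome, 25 of 43 were higher (58.1%) and 1, CTSF, lower on both scales, with a median of 3.41 and 1.37. Of 26 lysosomal membrane genes 18 were higher (69.2%) and none lower (median 3.27 and 1.24), and of 24 genes of mTORC1 nutrient sensing 12 were higher and none lower (2.73 and 0.71). Of 35 autophagy genes 13 were higher (37.1%) and none lower (2.28 and 0.24), a share near that of expressed genes. On the expressed-gene scale by itself, 13 of 43 hydrolases, 5 of 26 membrane genes, 8 of 35 autophagy genes and 7 of 24 nutrient-sensing genes were lower. The share lower on that scale was 29.9% among expressed nuclear genes and 57.8% among all tested genes.

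GM2A, the activator protein that presents ganglioside GM2 to its hydrolase, had 876, 1432 and 618 normalised counts in the EV vehicle libraries and 789.6, 431 and 204 in EV doxycycline. GM2A stood at 403, 734 and 679 in TFEB vehicle and at 47894, 75115 and 53663 in TFEB doxycycline. The TFEB doxycycline libraries stood far above the other 3 groups, which overlapped. Its interaction was 7.78 ± 0.79 and 5.74 ± 0.18 (limma, adjusted p = 2.73e-10 and 1.88e-11), with ± the SE. CTSD, the lysosomal aspartic protease cathepsin D, had 1221, 2208 and 616 normalised counts in the EV vehicle libraries and 1117, 611 and 214 in EV doxycycline. CTSD stood at 678, 1173 and 946 in TFEB vehicle and at 61479.8, 95848 and 61234 in TFEB doxycycline. Here too the 3 TFEB doxycycline libraries were apart from all 9 others, and the interaction was 7.46 ± 0.84 and 5.42 ± 0.29. CTSA, protective protein cathepsin A, had 1054, 1621 and 637 normalised counts in the EV vehicle libraries and 707, 504 and 172 in EV doxycycline. CTSA stood at 503, 761 and 669 in TFEB vehicle and at 21846, 27417 and 18437 in TFEB doxycycline, an interaction of 6.51 ± 0.79 and 4.47 ± 0.23 (limma, adjusted p = 1.79e-08 and 2.19e-09). GM2A kept its TFEB-only class in 11 of 12 fits, and CTSD and CTSA in 10 of 12 each.

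ATP6V0D2, a subunit of the membrane sector of the pump, had 12.9, 7.93 and 12.6 normalised counts in the EV vehicle libraries and 9.34, 15.1 and 17.04 in EV doxycycline. ATP6V0D2 stood at 12.8, 10.4 and 23.8 in TFEB vehicle and at 6655, 8733 and 6945 in TFEB doxycycline. It was near background in 3 groups and far above it in the fourth, with an interaction of 8.60 ± 0.46 and 6.67 ± 0.73 (limma, adjusted p = 2.68e-18 and 4.31e-06). The cytosolic-sector subunits ATP6V1F and ATP6V1C1 had interactions of 5.72 ± 0.79 and 3.68 ± 0.24 and of 5.67 ± 0.67 and 3.64 ± 0.21. Among membrane proteins, GPNMB, a glycoprotein of lysosomes and melanosomes, had an interaction of 7.95 ± 0.59 and 5.94 ± 0.66, the tetraspanin CD63 6.29 ± 0.76 and 4.25 ± 0.19 and LAMP1, a structural glycoprotein of the lysosome's limiting membrane, 4.78 ± 0.80 and 2.74 ± 0.24. LAMP1 was an opposite gene on both scales (EV response -1.74 and -0.45, TFEB response 3.04 and 2.29), in 9 of 12 fits.

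The autophagosome protein MAP1LC3B had 386, 615 and 242 normalised counts in the EV vehicle libraries and 363, 213 and 73.5 in EV doxycycline. MAP1LC3B stood at 212, 280.4 and 225 in TFEB vehicle and at 3663, 4611 and 3305 in TFEB doxycycline. Its interaction was 5.11 ± 0.71 and 3.08 ± 0.27 (limma, adjusted p = 4.12e-07 and 4.75e-07), and that of the autophagy receptor OPTN was 4.79 ± 0.43 and 2.81 ± 0.62. The 3 nutrient-sensing genes with the largest interaction act on the lysosome surface: the folliculin partner FNIP2 (6.90 ± 0.67 and 4.86 ± 0.24) and the Rag GTPases RRAGC (5.07 ± 0.62 and 3.04 ± 0.22) and RRAGD (4.94 ± 0.76 and 2.90 ± 0.20). FNIP2 went from 195, 214 and 229 normalised counts in the TFEB vehicle libraries to 13411, 16974 and 11999.7 in TFEB doxycycline, with 299.7, 499 and 268 in EV vehicle and 251, 197 and 134 in EV doxycycline.

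**Figure D3:**
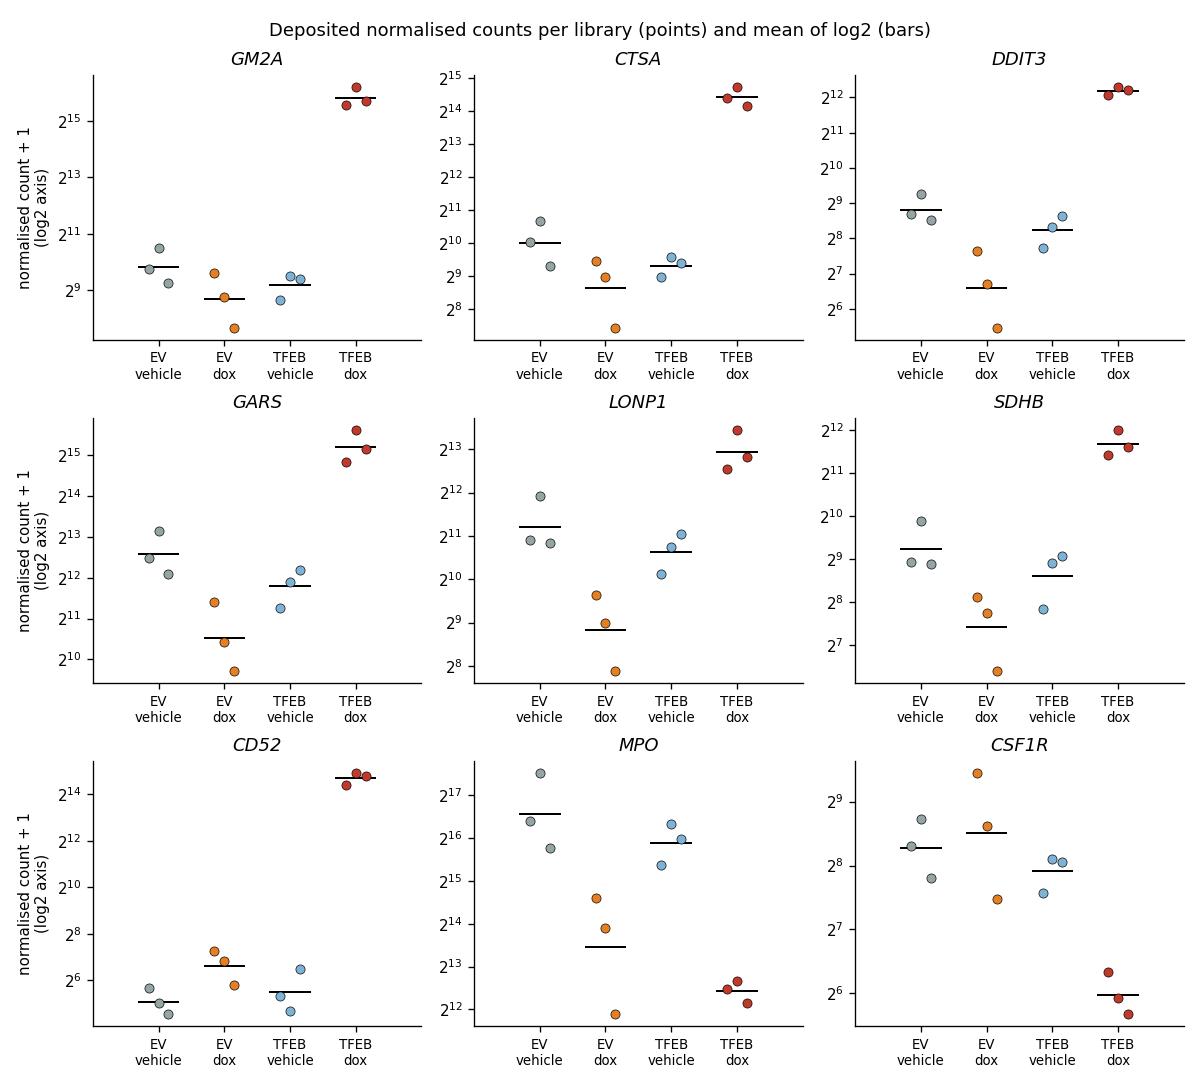
Normalised counts plus 1 on the deposited scale (log2 y axis) of 9 genes in each library (points) by group (x axis), with the mean of the log2 values as a bar. GM2A, CTSA, DDIT3, GARS, LONP1, SDHB and CD52 are highest in the TFEB doxycycline libraries, MPO is lower with doxycycline in both lines, and CSF1R is lowest in TFEB doxycycline.

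Promoter windows of RefSeq (GRCh38.p14, 250 bases before to 50 after the gene's start) were matched for 15202 of the 23128 tested genes and searched on both strands. Matching was by Ensembl gene identifier, and by symbol where the identifier gave no match. The E-box CACGTG was in 8.93% of the matched windows and the longer CLEAR core TCACGTGA, which contains it, in 1.48%. Among the expressed genes with a higher interaction on both scales, 16.4% of 1866 windows held CACGTG and 4.23% held TCACGTGA. Expressed genes whose interaction was not called on the expressed-gene scale had 11.2% and 2.06% of 2333, and those lower on it 8.90% and 1.27% of 1809. The 488 windows of TFEB-only rises held CACGTG in 15.6% and TCACGTGA in 5.33%, those of 157 EV-only genes with a higher interaction in 20.4% and 2.55%, and those of 90 drug-shared falls in 10.0% and none. TCACGTGA was in 2 of 9 windows of V-ATPase genes, 4 of 27 of hydrolases and 3 of 22 of lysosomal membrane genes, in 1 of 32 of autophagy genes and in 2 of 29 of DNA replication genes, a list with no higher interaction on both scales. The following windows are shown because they carry TCACGTGA, in capitals, and belong to genes of these lists, picked with their values known. They are written 5′ to 3′ along the gene:
CTSA, chr20:45891279-45891346, plus strand: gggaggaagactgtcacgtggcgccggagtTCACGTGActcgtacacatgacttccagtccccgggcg
ATP6V1G1, chr9:114587680-114587747, plus strand: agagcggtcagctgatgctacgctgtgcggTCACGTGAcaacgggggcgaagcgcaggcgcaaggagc
LAMP1, chr13:113297180-113297274, plus strand: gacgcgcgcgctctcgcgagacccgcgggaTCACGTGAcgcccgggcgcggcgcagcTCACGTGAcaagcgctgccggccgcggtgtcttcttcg
MCOLN1, chr19:7522552-7522646, plus strand: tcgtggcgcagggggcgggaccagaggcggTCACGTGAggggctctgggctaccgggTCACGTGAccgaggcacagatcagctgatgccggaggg
ATP6V1G1, a stalk subunit of the pump, had an interaction of 4.32 ± 0.82 and 2.29 ± 0.28, and MCOLN1, the lysosomal calcium channel, of 3.79 ± 0.50 and 1.77 ± 0.35. LAMP1 and MCOLN1 hold the element 2 times. A match is a description of the window's letters and not a measured binding site.

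The largest TFEB-only interactions were not lysosomal genes alone. The 9 genes with the largest values among those of mean 200 or more were the noncoding RNAs RP11-145M4.1 and LINC01050, AC006967.1, which the file types as protein-coding, the corepressor CIR1, the chemokines CCL18 and CCL3, the scavenger receptor MARCO, pancreatic polypeptide PPY and GM2A, with interactions, given as log2 differences, from 7.66 to 9.38 on the deposited scale and from 5.72 to 8.29 on the expressed-gene scale. The level of 200 was reached through the TFEB doxycycline libraries alone in all but CIR1 and GM2A: 2 of the 9 would pass it by the mean of the vehicle libraries, so their place in this ranking follows in part from the rise itself. CIR1 had 433, 719 and 477 normalised counts in the EV vehicle libraries and 434, 319 and 241 in EV doxycycline. CIR1 stood at 229, 372 and 786 in TFEB vehicle and at 46180.00, 137621 and 120382 in TFEB doxycycline. The 3 TFEB doxycycline libraries of CIR1 were above all 9 others, which overlapped. MARCO, which macrophages use to bind particles, had 35.1, 27.8 and 30.03 normalised counts in the EV vehicle libraries and 22.9, 26.8 and 33.2 in EV doxycycline. MARCO stood at 40.2, 25.7 and 39.7 in TFEB vehicle and at 7192, 10795 and 7765 in TFEB doxycycline. CCL18, a chemokine of macrophages and dendritic cells, had 4219, 7640.1 and 5102 in TFEB doxycycline and from 4.96 to 17.9 elsewhere. Their interactions were 8.06 ± 0.49 and 6.06 ± 0.63 (limma, adjusted p = 1.38e-16 and 2.23e-06) and 8.50 ± 0.50 and 6.60 ± 0.91 (limma, adjusted p = 6.79e-17 and 3.92e-05). CIR1 and LINC01050 kept the TFEB-only class in 12 of 12 fits, RP11-145M4.1, CCL3 and PPY in 11, AC006967.1 in 10, MARCO in 9 and CCL18 in 8.

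Of 24 monocyte and macrophage genes as a whole, 4 were higher (MARCO, ITGAX, EGR1 and EGR2) and 6 lower on both scales, with 3 lower once EV doxycycline replicate 2 was left out, and the median interaction was 0.17 and -1.85. EGR1, an immediate early transcription factor used in monocyte differentiation, had 8.33 ± 0.53 and 6.32 ± 0.48. Of 23 mature granulocyte genes 3 were higher on both scales and 4 were lower (S100A8, LTF, FPR1 and FPR2). Of 23 genes of NF-kB and cytokines 9 were higher on both scales (39.1%, against 31.1% of expressed nuclear genes) and none lower. On the expressed-gene scale 4 of the 23 were lower. IL8, the neutrophil-attracting chemokine, had an interaction of 8.92 ± 0.70 and 6.91 ± 0.74. The transcription factors BHLHE40 and KLF6 had interactions of 5.96 ± 0.74 and 3.93 ± 0.18 and of 4.93 ± 0.64 and 2.90 ± 0.19. Of 20 myeloid transcription factors 8 were higher (40%, against 31.1% of expressed nuclear genes) and 1 lower (NFE2) on both scales. On the expressed-gene scale 10 of the 20 were lower.

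Genes of the integrated stress response, the programme that ATF4 drives when translation initiation is slowed, held 7 opposite genes among 27 on both scales. Opposite genes with a rise in the TFEB line made up 1.02% of all tested genes and 233 of the 7290 expressed nuclear genes, and 24 of the 27 were expressed. Of the 27, 20 had a higher interaction and none a lower one on both scales, from 20 to 21 with any 1 library left out, and the median was 3.30 and 1.27. In the EV line 15 of the 27 fell with doxycycline on both scales, a count that ranged from 3 to 18 with 1 library left out and was lowest when EV vehicle replicate 2 was out and 9 when EV doxycycline replicate 2 or EV doxycycline replicate 3 was. In the TFEB line 14 of the 27 rose on both, against 30.2% of expressed nuclear genes. That count ran from 9 to 19 with 1 library left out, with 9 when the library removed was TFEB vehicle replicate 1, TFEB vehicle replicate 3, TFEB doxycycline replicate 2 or TFEB doxycycline replicate 3. DDIT3, the stress transcription factor CHOP, had 411, 607 and 363 normalised counts in the EV vehicle libraries and 198, 102 and 43.1 in EV doxycycline. DDIT3 stood at 209, 319.8 and 396 in TFEB vehicle and at 4306, 5044 and 4713 in TFEB doxycycline. Every EV doxycycline library was below every library of the other groups, and every TFEB doxycycline library was above them. Its interaction was 6.19 ± 0.70 and 4.16 ± 0.24 (limma, adjusted p = 3.47e-09 and 7.09e-09). TRIB3, the pseudokinase induced by CHOP, had 1172, 1894 and 597 normalised counts in the EV vehicle libraries and 429, 239.9 and 53.8 in EV doxycycline. TRIB3 stood at 642, 824 and 671 in TFEB vehicle and at 5051, 6374 and 4275 in TFEB doxycycline, with an interaction of 5.49 ± 0.81 and 3.45 ± 0.40 (limma, adjusted p = 1.26e-06 and 7.98e-06). Both kept the opposite class in 12 of 12 fits.

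GDF15, a secreted stress cytokine, and NUPR1, a stress-induced chromatin protein, had the largest interactions of the list, 8.46 ± 0.51 and 6.52 ± 0.66 and 6.63 ± 0.60 and 4.62 ± 0.49, and their EV responses were 0.65 and 1.85 and 0.37 and 1.63. GDF15 was at 8.93 to 35.8 normalised counts in the 9 libraries of the other groups and at 8286, 17404 and 11552 in TFEB doxycycline. ASNS, asparagine synthetase, had 1379, 2529 and 1059.6 normalised counts in the EV vehicle libraries and 673, 389 and 155 in EV doxycycline. ASNS stood at 654, 1197 and 1082 in TFEB vehicle and at 3169.8, 6294 and 5016 in TFEB doxycycline, an interaction of 4.46 ± 0.78 and 2.42 ± 0.23, and was opposite in 11 of 12 fits.

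Cytosolic tRNA synthetases, which charge tRNAs with amino acids, had a higher interaction on both scales in 14 of 20 and a lower one in none, from 13 to 14 with 1 library left out, at a median of 2.92 and 0.88. In the EV line 16 of the 20 fell on both scales, a count that dropped to 1 once EV vehicle replicate 2 was removed and to 8 for removal of EV doxycycline replicate 3. Rises in the TFEB line numbered 7 of the 20 on both, a share near the 30.2% of expressed nuclear genes that rose there. They numbered 4 once TFEB vehicle replicate 1, TFEB vehicle replicate 2, TFEB doxycycline replicate 2 or TFEB doxycycline replicate 3 was removed. GARS, the glycyl-tRNA synthetase, had 5755, 9101 and 4347 normalised counts in the EV vehicle libraries and 2726, 1379.7 and 840.4 in EV doxycycline. GARS stood at 2467, 3807 and 4701 in TFEB vehicle and at 29403, 50255 and 36622 in TFEB doxycycline. Its 3 EV doxycycline libraries overlapped the TFEB vehicle libraries but not those of EV vehicle, and its TFEB doxycycline libraries were above all others. The interaction was 5.48 ± 0.82 and 3.44 ± 0.22 (limma, adjusted p = 1.50e-06 and 1.64e-08), and the class was opposite in 11 of 12 fits. WARS, the tryptophanyl-tRNA synthetase, had an interaction of 5 ± 0.84 and 2.96 ± 0.26. MARS, TARS and 4 others were opposite on both scales, with MARS at 3.29 ± 0.76 and 1.25 ± 0.16 and TARS at 3.49 ± 0.81 and 1.46 ± 0.20, but MARS and TARS kept that class in 2 of 12 fits.

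The amino acid response element core TGATGNAAN, to which ATF4 with C/EBP partners binds, was in 2.30% of the matched windows of tested genes on either strand. It was in 6 of 22 windows of integrated stress response genes and in 6 of 16 of tRNA synthetases, and in 5.58% of 197 windows of opposite genes that rose in the TFEB line. It was in 2.66% of 488 windows of TFEB-only rises and 1.11% of 90 of drug-shared falls. The windows below carry it, in capitals, as read along the gene's strand, and were picked with their values known:
ASNS, chr7:97872438-97872506, minus strand: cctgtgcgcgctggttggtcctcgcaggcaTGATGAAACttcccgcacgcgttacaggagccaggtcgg
ATF3, chr1:212565186-212565254, plus strand: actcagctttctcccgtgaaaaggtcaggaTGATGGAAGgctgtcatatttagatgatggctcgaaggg
MARS, chr12:57488033-57488101, plus strand: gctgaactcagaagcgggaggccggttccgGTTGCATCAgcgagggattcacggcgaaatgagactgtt
TARS, chr5:33440936-33441004, plus strand: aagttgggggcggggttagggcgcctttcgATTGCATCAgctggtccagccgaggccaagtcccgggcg
ASNS and ATF3 hold TGATGNAAN itself, and MARS and TARS hold its reverse complement. ATF3, a transcription factor of the stress response, was TFEB-only, with an interaction of 3.30 ± 0.56 and 1.27 ± 0.31.

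Mitochondrial chaperones and proteases, which fold and clear imported proteins, included 9 of 21 genes (42.9%) with a higher interaction on both scales and none with a lower one (median 2.31 and 0.28). In the EV line 17 of 21 fell on both scales, and 1 without EV vehicle replicate 2. HSPA9, the matrix chaperone mortalin, had 2188, 4144 and 2159.9 normalised counts in the EV vehicle libraries and 897, 563 and 307 in EV doxycycline. HSPA9 stood at 1045, 2054 and 2299 in TFEB vehicle and at 5453, 9336 and 7362 in TFEB doxycycline. LONP1, the matrix protease, had 1912, 3867 and 1817 normalised counts in the EV vehicle libraries and 790.5, 507 and 235 in EV doxycycline. LONP1 stood at 1116, 1701 and 2099.9 in TFEB vehicle and at 5991, 11128 and 7288 in TFEB doxycycline. In both genes the EV doxycycline libraries were below all others and the TFEB doxycycline libraries above all others, with interactions of 4.41 ± 0.79 and 2.37 ± 0.19 (limma, adjusted p = 3.16e-05 and 1.67e-07) and 4.69 ± 0.79 and 2.65 ± 0.18 (limma, adjusted p = 1.24e-05 and 3.25e-08). Both were opposite in 11 of 12 fits.

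SDHB, the iron-sulphur subunit of respiratory complex II, had 485, 950.1 and 472 normalised counts in the EV vehicle libraries and 278, 216 and 83.4 in EV doxycycline. SDHB stood at 230.1, 480.5 and 535 in TFEB vehicle and at 2732, 4109 and 3135 in TFEB doxycycline. It was opposite in 10 of 12 fits, with an interaction of 4.87 ± 0.72 and 2.84 ± 0.20 (limma, adjusted p = 1.21e-06 and 3.97e-08). The nuclear respiratory chain list had 16 of 40 higher (40%, against 31.1% of expressed nuclear genes) and none lower on both scales (median 2.49 and 0.45). Without TFEB vehicle replicate 1 the higher genes numbered 9. On the expressed-gene scale 3 of the 40 were lower. Mitochondrial ribosomal proteins had 17 of 73 higher (23.3%) and none lower (2.09 and 0.06), a share below that of expressed genes, with MRPS30 opposite at 3.59 ± 0.75 and 1.55 ± 0.21. Of the 13 mRNAs encoded in mitochondrial DNA, 0 passed on both scales (limma), 2 were lower on the expressed-gene scale, and the median was 0.84 and -1.20. MT-CO1, the most abundant of them, had an interaction of 1.25 ± 0.69 and -0.79 ± 1.14 (limma, adjusted p = 0.147 and 0.542).

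Among all opposite genes, the 6 with the largest value of the smaller response were BEX1, CTA-384D8.31, PLD6, TRIB3, CST7 and KLHDC7B, and the first 5 kept the class in 12 of 12 fits. BEX1, a small adaptor protein, had 612, 883 and 489 normalised counts in the EV vehicle libraries and 101, 83.04 and 49.3 in EV doxycycline. BEX1 stood at 301, 494 and 649.6 in TFEB vehicle and at 3127, 5319 and 4447 in TFEB doxycycline. PLD6, a phospholipase of the mitochondrial surface, had 219, 461 and 144 normalised counts in the EV vehicle libraries and 31.4, 21.8 and 9.87 in EV doxycycline. PLD6 stood at 94.1, 172 and 159 in TFEB vehicle and at 1188, 999.5 and 725 in TFEB doxycycline. Each gene's EV doxycycline libraries were its lowest and its TFEB doxycycline libraries its highest, and the interactions were 6.28 ± 0.68 and 4.25 ± 0.23 (limma, adjusted p = 1.16e-09 and 4.17e-09) and 6.40 ± 0.60 and 4.41 ± 0.31 (limma, adjusted p = 2.75e-11 and 5.08e-08). CST7, a cystatin that inhibits lysosomal cysteine proteases and was listed with the azurophil granule genes, had an interaction of 5.22 ± 0.80 and 3.19 ± 0.27. CTA-384D8.31, a noncoding RNA, and KLHDC7B, a Kelch-domain protein, had 6.66 ± 0.58 and 4.75 ± 0.59 and 5.41 ± 0.56 and 3.40 ± 0.44. GATA2, a transcription factor of blood progenitors, was opposite in 11 of 12 fits, with an interaction of 5.50 ± 0.75 and 3.47 ± 0.22 (limma, adjusted p = 2.26e-07 and 1.53e-08). It was the 1 gene of the 16 in the progenitor list with a higher interaction on both scales. Of those 16, 2 were lower on both scales and 13 on the expressed-gene scale, and the list's median interaction was -0.36 and -2.29. GATA2 had 569, 1614 and 570.5 normalised counts in the EV vehicle libraries and 344, 232 and 105 in EV doxycycline. GATA2 stood at 383, 621 and 554 in TFEB vehicle and at 5900.5, 7334 and 4627 in TFEB doxycycline. HK2, which phosphorylates glucose, and LSS, which closes the sterol ring, were opposite too (5.52 ± 0.73 and 3.49 ± 0.19 and 5.63 ± 0.76 and 3.60 ± 0.21), in lists with 10 of 22 glycolysis genes and 6 of 24 cholesterol genes higher on both scales. The cholesterol share lies below that of expressed genes, and 9 of its 24 were lower on the expressed-gene scale and 1, TM7SF2, on both.

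EV-only genes with a higher interaction fell with doxycycline in the EV line and did not pass in the TFEB line. The acute-phase glycoprotein ORM1 had 688, 988 and 517 normalised counts in the EV vehicle libraries and 100.2, 52.8 and 32.3 in EV doxycycline. ORM1 stood at 294, 457 and 581 in TFEB vehicle and at 548, 553 and 497 in TFEB doxycycline. Its EV doxycycline libraries were apart from all others, and the TFEB libraries with and without doxycycline overlapped. The interaction was 3.96 ± 0.63 and 1.93 ± 0.24 (limma, adjusted p = 5.10e-06 and 1.51e-05). HSP90AB1, a cytosolic chaperone, HYOU1, a chaperone of the endoplasmic reticulum, and the nucleolar protein CCDC86 had interactions of 3.57 ± 0.84 and 1.53 ± 0.27, 3.51 ± 0.84 and 1.47 ± 0.23 and 3.51 ± 0.70 and 1.48 ± 0.22. CCDC86 kept the class in 12 of 12 fits, HSP90AB1 and HYOU1 in 10 each and ORM1 in 9 of 12. Of 34 ribosome biogenesis genes 8 were higher (23.5%) and none lower on both scales (median 1.99 and -0.04), a share below that of expressed genes. In the EV line 30 of the 34 fell on both scales, and 11 without EV vehicle replicate 2. Among them the nucleolar proteins NCL and NPM1 had 3.82 ± 0.82 and 1.78 ± 0.29 and 3.69 ± 0.82 and 1.65 ± 0.26. Neither was EV-only on both scales: NPM1 was opposite, in 6 of 12 fits, and NCL was in no class on both.

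Drug-shared falls were led by products of the azurophil granule, the storage granule of promyelocytes. MPO, myeloperoxidase, had 86350.4, 187310.00 and 55736 normalised counts in the EV vehicle libraries and 24774, 15361 and 3796 in EV doxycycline. MPO stood at 42625, 81792 and 65092 in TFEB vehicle and at 5736, 6504 and 4571 in TFEB doxycycline. PRTN3, proteinase 3, had 3887, 10324 and 3014 normalised counts in the EV vehicle libraries and 624, 602 and 133 in EV doxycycline. PRTN3 stood at 1804, 4632 and 3131 in TFEB vehicle and at 227, 284 and 165 in TFEB doxycycline. The doxycycline libraries of each line were below the vehicle libraries of both lines for both genes, and EV doxycycline was above TFEB doxycycline except in EV doxycycline replicate 3. The interactions were -0.36 ± 0.87 and -2.40 ± 0.41 (limma, adjusted p = 0.749 and 0.000302) and -0.00 ± 0.82 and -2.04 ± 0.36 (limma, adjusted p = 0.997 and 0.000379). Relative to other expressed genes the fall was larger in the TFEB line, and on the deposited scale no difference between the lines passed. The MPO interval on the deposited scale ran from -2.12 to 1.39. LYZ, lysozyme, and SERPINB10, a protease inhibitor, had interactions of 0.14 ± 0.82 and -1.90 ± 0.42 and 0.09 ± 0.75 and -1.95 ± 0.22. Of the 14 azurophil granule genes 2 were higher and none lower on both scales, and 9 were lower on the expressed-gene scale. The 2 were CST7 and SERPINB1, an inhibitor of neutrophil elastase (2.97 ± 0.75 and 0.93 ± 0.24).

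MYB, a transcription factor that keeps myeloid progenitors proliferating, had 6193, 11276 and 4934 normalised counts in the EV vehicle libraries and 1859, 1173 and 563 in EV doxycycline. MYB stood at 2836, 5197 and 4969 in TFEB vehicle and at 589, 670.3 and 555 in TFEB doxycycline, with an interaction of -0.08 ± 0.79 and -2.12 ± 0.16 (limma, adjusted p = 0.938 and 1.03e-07). MYC, the growth-promoting transcription factor, had 20650.4, 48118 and 24416 normalised counts in the EV vehicle libraries and 4061, 3629 and 1842 in EV doxycycline. MYC stood at 9265, 20658 and 26296 in TFEB vehicle and at 3158, 7047 and 5132 in TFEB doxycycline, with an interaction of 1.45 ± 0.83 and -0.59 ± 0.32 (limma, adjusted p = 0.164 and 0.105) that passed on neither scale. MPO, PRTN3, LYZ, SERPINB10 and MYB were drug-shared in 12 of 12 fits and MYC in 8 of 12. DNA replication genes also differed between the 2 scales: of 33, 0 were called on both (limma), 1 was higher on the deposited scale, and 30 were lower on the expressed-gene scale, from 29 to 31 with 1 library left out, at a median of 0.50 and -1.54. All 33 fell in the TFEB line on the expressed-gene scale and 14 on both scales, and 18 fell in the EV line on both. Those 14 ranged from 6 to 21 with 1 library left out, lowest for removal of TFEB vehicle replicate 3 and under 10 also for TFEB vehicle replicate 2 or any TFEB doxycycline library, and the 18 ranged from 2 to 20, at 2 once EV vehicle replicate 2 was removed and at 9 for removal of EV doxycycline replicate 3. MCM2, a subunit of the replicative helicase, had an interaction of 0.87 ± 0.80 and -1.17 ± 0.23 (limma, adjusted p = 0.381 and 0.00104). Of 28 mitosis genes 0 passed on both scales (limma) and 26 were lower on the expressed-gene scale (median 0.78 and -1.26).

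Drug-shared rises numbered 61 on both scales. CD52, a surface glycopeptide of leukocytes, had 50.3, 31.7 and 22.3 normalised counts in the EV vehicle libraries and 150.3, 112 and 54.7 in EV doxycycline. CD52 stood at 39.3, 24.9 and 89.4 in TFEB vehicle and at 21424, 30542 and 27904 in TFEB doxycycline. The EV doxycycline libraries overlapped the vehicle libraries in replicate 3 only, and the TFEB doxycycline libraries were far above all others. The interaction was 7.64 ± 0.65 and 5.63 ± 0.53 (limma, adjusted p = 2.00e-12 and 7.87e-07), and the class held in 9 of 12 fits. ITGAX, the integrin chain CD11c of macrophages and dendritic cells, had 129.95, 84.3 and 92.01 normalised counts in the EV vehicle libraries and 424, 294 and 130.1 in EV doxycycline. ITGAX stood at 128, 91.6 and 104 in TFEB vehicle and at 7397, 13502 and 9735 in TFEB doxycycline, with an interaction of 5.19 ± 0.66 and 3.17 ± 0.46 (limma, adjusted p = 5.24e-08 and 6.37e-05), in 6 of 12 fits. IER3, an early response gene, EMP1, a membrane protein, the dehydrogenase HSD17B14, the homeobox factor MEIS3 and the focal adhesion adaptor PXN also rose in both lines and more in the TFEB line, with interactions of 6.42 ± 0.55 and 4.50 ± 0.90, 4.79 ± 0.52 and 2.77 ± 0.37, 4.91 ± 0.49 and 3.02 ± 0.88, 4.16 ± 0.49 and 2.15 ± 0.46 and 3.39 ± 0.59 and 1.37 ± 0.33. SLITRK5, a neuronal adhesion protein, had 2.11 ± 0.66 and 0.08 ± 0.29, higher in the TFEB line on the deposited scale only.

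A lower interaction on both scales was found in 5 expressed genes, which were named after their values were seen. LOXL4, a collagen cross-linking oxidase, had 32.8, 30.7 and 33.9 normalised counts in the EV vehicle libraries and 799, 857 and 482 in EV doxycycline. LOXL4 stood at 52.1, 36.96 and 34.8 in TFEB vehicle and at 49.2, 117 and 92.95 in TFEB doxycycline. The 3 EV doxycycline libraries were above all 9 others, none of which exceeded 117. LOXL4 therefore reached the mean of 200 through the EV doxycycline libraries alone, so its place among the 5 follows in part from its own rise. It rose in both lines on the deposited scale, less in the TFEB line, and in the EV line alone on the expressed-gene scale, with an interaction of -3.39 ± 0.49 and -5.39 ± 0.56 (limma, adjusted p = 7.28e-07 and 2.20e-06). CSF1R, the receptor for macrophage colony-stimulating factor, had 315, 424 and 222 normalised counts in the EV vehicle libraries and 695, 393 and 178 in EV doxycycline. CSF1R stood at 189.9, 274 and 265 in TFEB vehicle and at 79.6, 60.3 and 50.1 in TFEB doxycycline. The 3 TFEB doxycycline libraries were below all 9 others, and the interaction was -2.17 ± 0.60 and -4.19 ± 0.31 (limma, adjusted p = 0.00525 and 8.00e-08). NFE2, a transcription factor of the erythroid and megakaryocytic lineages, had 1004, 2001 and 737 normalised counts in the EV vehicle libraries and 558, 377 and 188 in EV doxycycline. NFE2 stood at 523, 1016 and 817 in TFEB vehicle and at 71.3, 75.3 and 55.04 in TFEB doxycycline. GAPT, a membrane adaptor, had an interaction of -1.95 ± 0.58 and -3.97 ± 0.27 and GLIPR1, a secreted-type cysteine-rich protein, of -1.69 ± 0.60 and -3.72 ± 0.26. That of NFE2 was -1.75 ± 0.67 and -3.78 ± 0.21 (limma, adjusted p = 0.038 and 5.45e-09). NFE2 fell in both lines, further in the TFEB line, and was drug-shared in 8 of 12 fits. On the deposited scale the interaction of NFE2 lost its call in 9 of 12 fits with 1 library left out (adjusted p from 0.0626 to 0.103, limma) and that of GLIPR1 in 8 of 12 (0.0504 to 0.076). The other 1417 genes lower on both scales had means under 200 or were mitochondrial. Among them, the 37 TFEB-only falls, 17 opposite genes and 376 EV-only genes had median levels of 18.1, 23.6 and 23.7 normalised counts, and the rest were in none of these classes on both scales.

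The TFEB gene itself had 129, 196 and 110.4 normalised counts in the EV vehicle libraries and 127, 83.9 and 79.8 in EV doxycycline. TFEB stood at 105, 118 and 149 in TFEB vehicle and at 17468, 22629 and 14470.4 in TFEB doxycycline, with an interaction of 7.74 ± 0.63 and 5.71 ± 0.31 (limma, adjusted p = 6.70e-13 and 3.67e-09). Reads of the S211A vector and of the cell's own gene cannot be told apart here, so this value checks the labels of the 3 TFEB doxycycline libraries and is no response of the endogenous gene. IDH1, the cytosolic isocitrate dehydrogenase, had 411, 765 and 452 normalised counts in the EV vehicle libraries and 317, 239.9 and 147 in EV doxycycline. IDH1 stood at 184, 382 and 423 in TFEB vehicle and at 1679.7, 4459.7 and 3579 in TFEB doxycycline. It was TFEB-only in 11 of 12 fits, with an interaction of 4.49 ± 0.71 and 2.45 ± 0.32 (limma, adjusted p = 4.03e-06 and 2.12e-05). The mitochondrial enzyme IDH2 had 1.31 ± 0.82 and -0.73 ± 0.38 and the methylcytosine dioxygenase TET2 had 1.25 ± 0.79 and -0.79 ± 0.22, and both changed sign with the scale. TET2 passed on the expressed-gene scale only (limma, adjusted p = 0.0081) and IDH2 on neither.

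**Figure D4:**
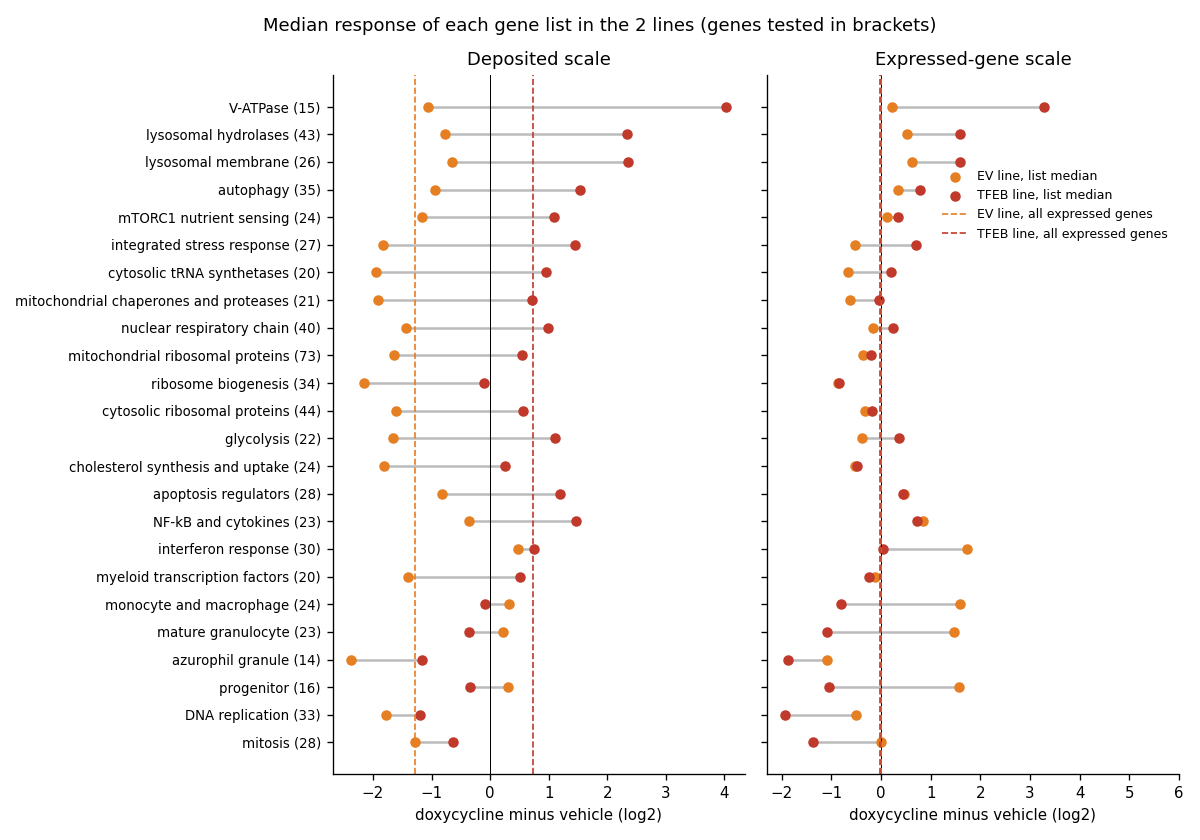
Median response to doxycycline (log2, x axis) of 24 gene lists (rows, tested genes in brackets) in the EV line (orange) and TFEB line (red), on the deposited scale (left) and the expressed-gene scale (right). Dashed lines mark the median of all expressed genes in each line, and the V-ATPase list has the largest distance between the 2 lines on both scales, 4.77 and 2.74 as a median of its genes' interactions.

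Cytosolic ribosomal proteins had 31 of 44 higher on the deposited scale and 1 on the expressed-gene scale (median 2.22 and 0.18), with RPL5 at 2.22 ± 0.81 and 0.18 ± 0.33. Interferon response genes had 1 of 30 higher and 1, IFITM1, lower on both scales (0.97 and -1.01). Apoptosis regulators had 11 of 28 higher on both scales (39.3%, against 31.1% of expressed nuclear genes) and none lower. On the expressed-gene scale 8 of the 28 were lower. The higher genes included the cell cycle inhibitor CDKN1A (6.95 ± 0.54 and 4.94 ± 0.43) and the BCL2 relative BCL2A1 (6.22 ± 0.49 and 4.24 ± 0.47).

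The cells expressed promyelocytic granule genes, with MPO at 42625 to 187310.00 normalised counts in the vehicle libraries of both lines. Of the 17 listed azurophil granule genes, DEFA1, DEFA3 and DEFA4 had means under 10 and were not tested. The summed levels of markers of other cell types differed between the groups. Summed monocyte and macrophage markers (25 genes, 1 at 0 in every library) took 344 to 356 CPM (counts scaled to the library's total) in EV vehicle, 549 to 643 in EV doxycycline, 303 to 414 in TFEB vehicle and 1797 to 2056 in TFEB doxycycline. Most of these genes did not follow that sum. Of the 24 tested, 4 had a higher and 6 a lower interaction on both scales, and 16 were lower on the expressed-gene scale. Lymphoid markers (14 genes) took 25.1 to 42.7, 52.4 to 103, 35.5 to 62.4 and 598 to 748 in the same order of groups, with CD22, a surface lectin of B cells, at an interaction of 7.32 ± 0.54 and 5.31 ± 0.49. Most of the 14 did not follow that sum: 3 had a higher and 3 a lower interaction on both scales. On the expressed-gene scale 11 were lower, and the median interaction was -0.72 and -2.68. Erythroid and megakaryocyte markers (16 genes) took 17.7 to 30.5, 32.2 to 70.0, 28.1 to 47.6 and 14.5 to 17.3 CPM, lowest in TFEB doxycycline, and stromal and epithelial markers (13 genes) 18.2 to 62.1, 66.9 to 210, 51.1 to 105 and 24.1 to 38.4. Their part in the results was not tested. In bulk RNA, fewer cells of a type and less RNA per cell cannot be told apart.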

How the data were processed

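RNA of 12 HL60 libraries was sequenced after preparation with a NuGEN Ovation kit, per the labels' protocols, which do not say whether the kit or the counting kept strand. Per the submitters' processing notes the authors used STAR 2.5.3a and HTSeq 0.6.1. Neither build nor annotation is given in the sources used here, and no coordinate is taken from the file. The deposited signal values are read counts per gene divided by 1 factor per library: all values of every library (100%) are whole multiples of 1 step within a tolerance of 0.01, although in 2 libraries the step lies within 1% of 1 and cannot be told from rounding. Reads recovered this way set the depth of 4474007 to 22488047, which limits the precision of low genes.

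Genes with a mean of at least 10 (23128 of 57820) were tested with limma 3.58.1 (R 4.3.3) on log2(value + 1), with a variance trend, 4 group means and 3 contrasts. A fold change on this log2 scale understates the change of low genes. P-values were adjusted by Benjamini-Hochberg over all tested genes, and a call is an adjusted p under 0.05. The expressed-gene scale divides each library by its median ratio over 7290 nuclear genes of mean 200 or more. Alternatives applied DESeq2 1.42.0 and edgeR 4.0.16 to recovered read counts, or used other scalings, filters and left-out libraries. The scripts were tested on simulated data. Libraries of 1 group differed by more than counting noise (chi-square per degree of freedom 11.2 to 38.3), so none was merged. The labels name no source that same-numbered libraries share, and not all of their pairs deviated together, so replicate numbers were not used to pair libraries except in an alternative.

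The 28 gene lists (756 members, 754 in the file, 735 tested) and all members were chosen with earlier results of these data known. Genes named are TFEB, IDH1, IDH2, TET2 and MYC, the largest of each class among genes of mean 200 or more with the same class and direction on both scales, and in each list those with the largest interaction called on both scales, or the most abundant where fewer than 2 were called, with the rankings shortened from the bottom. Genes named for a count of 5 or fewer, for the lowest interaction or for a printed promoter were chosen after their values were seen. Promoter sequences are RefSeq windows of GRCh38.p14. Some genes that this rule names are not reported here.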

Additional observations from a re-analysis of the deposited data

Results flagged for a closer look

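In the genes below the doxycycline response differed between the 2 lines by the test of the difference itself (limma interaction, adjusted p under 0.05 on both scales). Values are interactions in log2 on the deposited scale, where the median of expressed genes is 2.04. Lysosomal and nutrient-sensing genes had ATP6V0D2 at 8.60, then CTSD 7.46, GM2A 7.78, GPNMB 7.95, FNIP2 6.90, CTSA 6.51, CD63 6.29, ATP6V1F 5.72, ATP6V1C1 5.67, MAP1LC3B 5.11, RRAGC 5.07, RRAGD 4.94, OPTN 4.79, LAMP1 4.78, ATP6V1G1 4.32 and MCOLN1 3.79. Stress response and tRNA synthetase genes had GDF15 8.46, NUPR1 6.63, DDIT3 6.19, TRIB3 5.49, GARS 5.48, WARS 5, ASNS 4.46, TARS 3.49, ATF3 3.30 and MARS 3.29. Mitochondrial and metabolic genes had LSS 5.63, HK2 5.52, SDHB 4.87, LONP1 4.69, IDH1 4.49, HSPA9 4.41 and MRPS30 3.59. Myeloid, cytokine and signalling genes had IL8 8.92, CCL18 8.50, EGR1 8.33, MARCO 8.06, CCL3 7.66, CD22 7.32, IER3 6.42, BHLHE40 5.96, GATA2 5.50, CST7 5.22, ITGAX 5.19, KLF6 4.93 and SERPINB1 2.97. Survival and cell cycle regulators had CDKN1A 6.95 and BCL2A1 6.22. Other genes that rose in the TFEB line had RP11-145M4.1 9.38, AC006967.1 9.09, CIR1 8.53, LINC01050 8.307, PPY 7.99, TFEB 7.74, CD52 7.64, CTA-384D8.31 6.66, PLD6 6.40, BEX1 6.28, KLHDC7B 5.41, HSD17B14 4.91, EMP1 4.79, MEIS3 4.16 and PXN 3.39, where the TFEB value holds the vector's own transcript. Genes that fell in the EV line with no call in the TFEB line on both scales, or with a rise there, had ORM1 3.96, NCL 3.82, NPM1 3.69, HSP90AB1 3.57, CCDC86 3.51 and HYOU1 3.51. The 5 expressed genes with a lower interaction had LOXL4 -3.39, CSF1R -2.17, GAPT -1.95, NFE2 -1.75 and GLIPR1 -1.69.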

How the results depend on the processing

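Leaving out each library in turn gave, on the deposited scale, 5557 to 9866 interaction calls (against 8177), 3502 to 6383 calls in the TFEB line (against 5109), 454 to 9221 calls in the EV line (against 6179), 121 to 745 drug-shared genes (against 550), 2038 to 4232 TFEB-only genes (against 2814), 59 to 2132 opposite genes (against 1071) and 174 to 4397 EV-only genes (against 2615). On the expressed-gene scale it gave 12412 to 16979 interaction calls (against 15910), 6453 to 10102 calls in the TFEB line (against 8111), 1729 to 14548 calls in the EV line (against 11534), 741 to 2164 drug-shared genes (against 1914), 3252 to 6693 TFEB-only genes (against 3959), 348 to 2240 opposite genes (against 1459) and 511 to 9119 EV-only genes (against 7091). On both scales together it gave 3003 to 4474 interaction calls (against 3954), 49 to 234 drug-shared genes (against 180), 88 to 2101 TFEB-only genes (against 699), 21 to 336 opposite genes (against 253) and 46 to 1123 EV-only genes (against 565). Class counts over 1.5 times from the main value on the deposited scale follow. The expressed-gene scale gave 15910 interaction calls, 8111 calls in the TFEB line, 11534 calls in the EV line, 1914 drug-shared genes and 7091 EV-only genes, equal totals 16006 interaction calls, 9739 calls in the TFEB line, 10107 calls in the EV line, 1881 drug-shared genes, 4765 TFEB-only genes, 2158 opposite genes and 5236 EV-only genes, TMM factors 1303 drug-shared genes and 4049 EV-only genes, no filter on low values 3878 calls in the EV line, 321 drug-shared genes, 573 opposite genes and 1518 EV-only genes, a mean of at least 200 (fewer genes tested) 5118 interaction calls, 2895 calls in the TFEB line, 318 drug-shared genes and 1141 TFEB-only genes and DESeq2 1666 opposite genes. A mean of at least 200 on the expressed-gene scale, added after seeing the data, gave 4366 interaction calls, 5233 calls in the TFEB line, 2564 calls in the EV line, 2579 TFEB-only genes, 572 opposite genes and 371 EV-only genes. EV vehicle replicate 2 and EV doxycycline replicate 3 left out together, also added after seeing the data, gave 7802 calls in the TFEB line, 636 calls in the EV line, 200 drug-shared genes, 4960 TFEB-only genes, 132 opposite genes and 215 EV-only genes on the deposited scale, 12646 calls in the TFEB line, 1499 calls in the EV line, 732 drug-shared genes, 8622 TFEB-only genes, 363 opposite genes and 323 EV-only genes on the expressed-gene scale and 118 drug-shared genes, 2612 TFEB-only genes, 60 opposite genes and 56 EV-only genes on both. A pseudocount of 5, edgeR, no variance trend, a minimum log2 change of 1 and edgeR with the expressed-gene scale (also added later) left the class counts they were run on within 1.5 times. The cause of these shifts was not tested.

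With the replicate number as a block the deposited scale gave 1702 opposite genes (against 1071), the expressed-gene scale with the block 16712 interaction calls, 9031 calls in the TFEB line, 13066 calls in the EV line, 2396 drug-shared genes, 2133 opposite genes and 7505 EV-only genes, and both scales together 276 drug-shared genes, 414 TFEB-only genes and 393 opposite genes. The numbers mark no shared source in the labels: 12 of 18 pairs of same-numbered libraries had deviations correlated above 0.1 (range -0.597 to 0.685), and 6 of 12 libraries correlated best with their own number. The block changed no other count by over 1.5 times and no named gene's call on the deposited scale, while on the expressed-gene scale it brought MYC and IDH2 past the threshold (limma, adjusted p = 0.0123 and 0.0145).

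Of 2064 interactions recomputed for 86 named genes, 1969 kept direction and side of the threshold, 35 lost the call, 10 gained it and 50 changed sign. The sign changed on the expressed-gene scale for IDH2 -0.73, TET2 -0.785, MYC -0.593, LYZ -1.9, SERPINB10 -1.95, MT-CO1 -0.789 and MCM2 -1.17 (log2), with the same values under the block, and with equal totals for IDH2 -0.682, TET2 -0.738, MYC -0.546, LYZ -1.85, SERPINB10 -1.9, MT-CO1 -0.742 and MCM2 -1.12. It changed with TMM factors for LYZ -0.72 and SERPINB10 -0.775, with a pseudocount of 5 for PRTN3 0.000852, with edgeR for SERPINB10 -0.0166, with DESeq2 for SERPINB10 -0.0168 and with both EV libraries left out for LYZ -0.871, SERPINB10 -0.705 and MCM2 -0.137. With 1 library left out the values crossed 0 for PRTN3 from -0.74 to 0.37, MYB from -0.55 to 0.31, LYZ from -0.53 to 0.67, SERPINB10 from -0.39 to 0.45 and MPO from -1.15 to 0.20. Depth limits the genes under a mean of 200, most of all in EV doxycycline replicate 3 with 4474007 reads, and p-values measure the spread between 3 libraries a group. The cause of these changes was not tested.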
